A study of Caenorhabditis elegans with 2 samples.

Results

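The regions described here are the starts of the nuclear tRNA genes of Caenorhabditis elegans, scored for binding of the homeodomain protein CEH-82. Each window covered 500 bp before and 100 bp after the start of a gene, and one was drawn for every gene of biotype tRNA in the Ensembl release 115 annotation of the WBcel235 assembly, the same sequence as ce11. There were 612 such windows among 46890 gene starts of all biotypes. The X chromosome carried 276 of them and the 5 autosomes carried 336, with 66 on I, 57 on II, 64 on III, 71 on IV and 78 on V. RefSeq named an amino acid for all but 5 of the genes. The sequence GTTCGA, the core of the B box, was present in the body of 442 of 612 genes (72.2%), so the label and the sequences go together for most members.

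Both samples were whole L3 larvae of strain OP212, whose genotype is given as unc-119(ed3) III; ddEx58, and both carried eGFP-tagged CEH-82. They formed 1 group of 2 biological replicates of mixed sex, labelled as pooled males and females, so the mean number of X copies per animal is not known. The labels name no other condition, describe an insertion that targets ceh-82, and give neither the promoter that drives the tagged protein nor the number of copies of the transgene. Binding was measured by ChIP-seq, in which DNA bound by the tagged protein is recovered with an antibody and sequenced, and the cells of the larvae that contributed are not distinguished.

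The evidence was in lists of peaks on ce11, each peak with a summit and a signal value. The reproducible list held 748 peaks that passed the authors' threshold on reproducibility between the replicates. The candidate lists, which mix peaks with background, had 30000 entries when both samples were pooled. Taken separately, replicate 1 had 30000 entries and replicate 2 had 22611. The reproducible list was close to the top of the pooled list, since 747 of its 748 peaks were among the 748 strongest pooled entries. Each replicate was therefore also read alone, by the 748 strongest entries of its own list. The signal value comes from the authors without a stated scale, so it is compared only within a list. The depth of the libraries is unknown.

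tRNA genes are short genes transcribed by RNA polymerase III. Their promoter lies inside the gene, in the A box and the B box, which are bound by TFIIIC. TFIIIC then places TFIIIB just upstream of the start, and TFIIIB recruits the polymerase. In C. elegans many tRNA genes lie on X, some alone and some in small groups, and many lie inside introns of protein-coding genes.

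The tRNA genes with the strongest peaks are shown first, as sequence from 100 bp upstream of the start to the end of the gene, 5′ to 3′ on the gene strand. The gene is in capitals and the flank in lower case. They were chosen because they have the 5 strongest tRNA peaks on X and the strongest on an autosome other than I. Coordinates are those of WBcel235, and the sequence is from its RefSeq record. The tRNA-Gly gene M02F4.t1 spans chrX:3036064-3036235 on the plus strand with this flank. The tRNA-Tyr gene R11.t1 spans chrX:16209769-16209952 on the minus strand. The tRNA-Ser gene C53C7.t2 spans chrX:13046366-13046547 on the minus strand. The tRNA-Lys gene C33G3.t2 spans chrX:14063946-14064118 on the minus strand. The tRNA-Gln gene R04A9.t1 spans chrX:410291-410462 on the plus strand. The tRNA-Ile gene F57F5.t1 spans chrV:12002076-12002260 on the plus strand.
M02F4.t1: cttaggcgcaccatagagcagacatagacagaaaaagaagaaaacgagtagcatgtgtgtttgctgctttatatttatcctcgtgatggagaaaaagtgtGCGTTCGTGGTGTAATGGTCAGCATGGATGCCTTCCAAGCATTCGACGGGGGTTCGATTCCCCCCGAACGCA
R11.t1: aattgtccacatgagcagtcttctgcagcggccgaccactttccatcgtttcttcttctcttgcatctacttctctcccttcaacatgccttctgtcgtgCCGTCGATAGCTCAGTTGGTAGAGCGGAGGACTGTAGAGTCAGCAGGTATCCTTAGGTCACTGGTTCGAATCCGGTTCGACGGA
C53C7.t2: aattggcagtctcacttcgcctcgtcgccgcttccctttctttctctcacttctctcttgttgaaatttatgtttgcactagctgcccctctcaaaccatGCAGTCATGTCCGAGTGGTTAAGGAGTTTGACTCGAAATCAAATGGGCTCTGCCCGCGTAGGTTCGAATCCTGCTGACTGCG
C33G3.t2: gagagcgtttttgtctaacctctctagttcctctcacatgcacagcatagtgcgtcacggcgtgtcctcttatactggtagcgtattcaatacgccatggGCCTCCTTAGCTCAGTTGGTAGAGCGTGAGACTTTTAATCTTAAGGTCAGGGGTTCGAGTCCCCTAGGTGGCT
R04A9.t1: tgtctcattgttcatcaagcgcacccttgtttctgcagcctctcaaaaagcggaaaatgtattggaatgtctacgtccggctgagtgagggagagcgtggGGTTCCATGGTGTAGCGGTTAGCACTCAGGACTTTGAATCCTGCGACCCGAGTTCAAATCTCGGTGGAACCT
F57F5.t1: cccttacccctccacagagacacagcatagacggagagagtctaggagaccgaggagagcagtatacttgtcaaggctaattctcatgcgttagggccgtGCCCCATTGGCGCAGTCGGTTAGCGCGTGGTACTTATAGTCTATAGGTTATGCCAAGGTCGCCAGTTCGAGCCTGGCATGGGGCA

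A reproducible summit lay in the start window of 69 of 612 tRNA genes (11.3%, 95% interval 8.88 to 14.1), against 1.63% of all gene starts. These genes shared 61 peaks, because 8 peaks lay in the windows of 2 tRNA genes each. Neighbouring genes are therefore not replicates of each other, and the intervals, which are exact Clopper-Pearson intervals, cover counting error only. On X, 47 of 276 tRNA genes (17.0%, 12.8 to 22.0) had a summit, and on the autosomes 22 of 336 (6.55%, 4.15 to 9.75). The share on X was 2.60 times the autosomal share, a difference of 10.5 percentage points (Newcombe 95% interval 5.40 to 15.8). Over all gene starts the shares were 2.27% on X and 1.53% on the autosomes, and without piRNA genes, which are numerous on IV, they were 2.34% and 2.37%. tRNA genes were thus above the background on both kinds of chromosome.

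The same order was found in each replicate alone. In replicate 1 the 748 strongest entries had a summit at 44 of 276 tRNA genes on X (15.9%) and at 22 of 336 on the autosomes (6.55%), a difference of 9.39 points (4.41 to 14.7). All gene starts gave 1.60% in that list, with 2.29% on X and 1.49% on the autosomes. In replicate 2 the counts were 35 of 276 on X (12.7%) and 12 of 336 on the autosomes (3.57%), a difference of 9.11 points (4.83 to 13.8). All gene starts gave 1.43% there, with 2.16% on X and 1.33% on the autosomes. The interval of the difference lay above 0 in both replicates. Without genes that have an identical copy elsewhere the difference was 4.71 points, and its interval ran from -4.33 to 15.8, so it was not detectable among the 143 remaining genes. Among them, replicate 1 had a summit at 3 of 57 genes on X (5.26%) and 4 of 86 on the autosomes (4.65%), so the shares were close there. Replicate 2 had one at 6 of 57 (10.5%) and 3 of 86 (3.49%). The placement of reads that match several copies is not stated, and its part in the result was not tested.

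**Figure D1:**
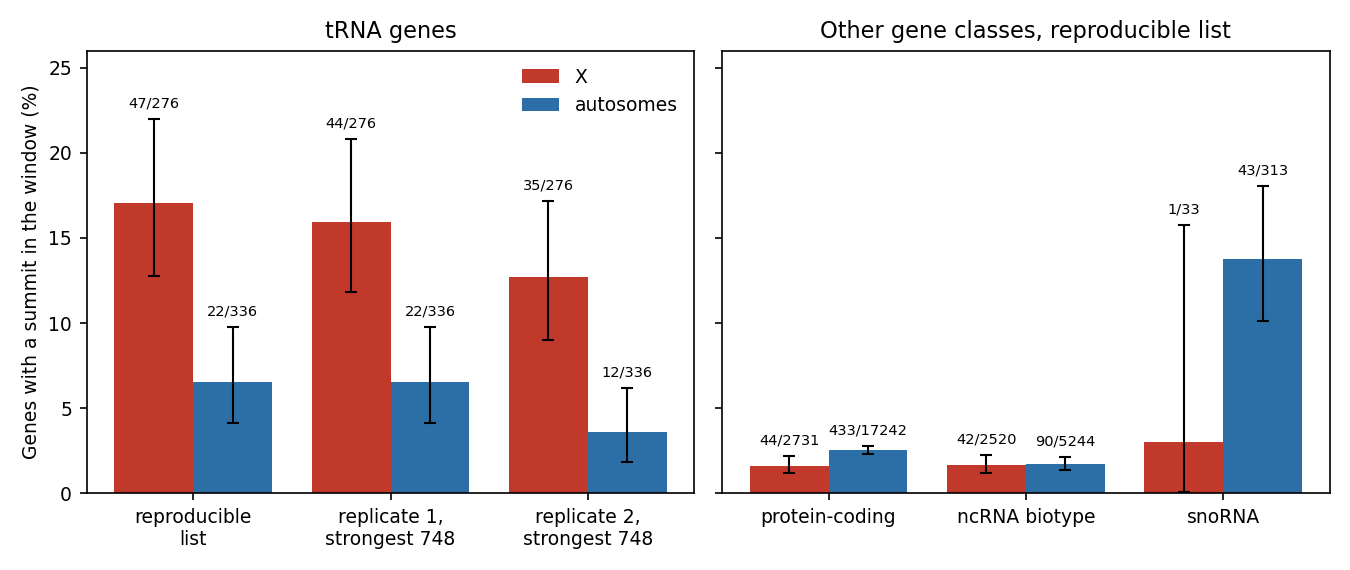
Bars give the percentage of genes with a summit in the start window on X (red) and on autosomes (blue), and error bars are exact 95% intervals that cover counting error only. On the left are tRNA genes in the reproducible list and in the 748 strongest entries of each replicate, and on the right are 3 other gene classes in the reproducible list. The X bar stands above the autosomal bar for tRNA genes in all 3 lists.

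In the 4 other gene classes given here, the share on X was below that on the autosomes or close to it. Protein-coding starts had a reproducible summit in 44 of 2731 cases on X (1.61%, 1.17 to 2.16) and in 433 of 17242 on the autosomes (2.51%, 2.28 to 2.76). Genes of the ncRNA biotype gave 1.67% on X and 1.72% on the autosomes, with 1.83% and 1.81% in replicate 1 and 1.71% and 1.58% in replicate 2. miRNA genes gave 2 of 74 on X (2.70%) and 4 of 187 on the autosomes (2.14%), with intervals that overlapped. snoRNA genes, which guide chemical modification of other RNAs, gave 1 of 33 on X and 43 of 313 on the autosomes (13.7%). Only 6 of the 69 tRNA genes with a summit had it inside a protein-coding start window as well, 3 on X and 3 on the autosomes. Among tRNA windows that overlapped no protein-coding window, 43 of 240 on X and 19 of 255 on the autosomes had a summit.

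By chromosome, the autosomal shares ran from 2 of 71 genes on IV (2.82%) to 7 of 64 on III (10.9%), with 5 of 66 on I, 5 of 57 on II and 3 of 78 on V. Each was below the 17.0% of X. Within X the first of 3 equal parts of the chromosome held the highest share, with 16 of 51 tRNA genes (31.4%, 19.1 to 45.9). The middle part had 13 of 107 (12.1%) and the last part 18 of 118 (15.3%). In replicate 1 alone the 3 parts gave 29.4%, 12.1% and 13.6%, and in replicate 2 alone 19.6%, 8.41% and 13.6%. The first part was highest in each list, although its interval overlapped those of both other parts in every list. The corresponding parts of the autosomes gave 6.25%, 9.09% and 4.79%.

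Candidate entries of any strength were spread more evenly over X and autosomes than the strongest ones. Any entry of the pooled list had its summit in the window of 160 of 276 tRNA genes on X (58.0%) and of 179 of 336 on the autosomes (53.3%), against 21.4% of all gene starts. In the whole list of replicate 1 the counts were 149 (54.0%) and 176 (52.4%), against 21.1%, and in that of replicate 2 they were 132 (47.8%) and 125 (37.2%), against 16.5%. The entries on X were also stronger. The median signal of pooled entries in tRNA windows was 16.6 on X (135 entries) and 12.2 on the autosomes (168 entries), and 29.6% and 12.5% of them were among the 748 strongest. In replicate 1 the medians were 11.2 and 9.41, and in replicate 2 they were 5.27 and 3.94. Entries in protein-coding windows had pooled medians of 7.83 on X and 8.60 on the autosomes, and the whole pooled list had 7.26 and 7.31. In the whole lists of the replicates the medians were 5.97 on X and 5.93 on the autosomes in replicate 1, and 3.12 and 3.09 in replicate 2. The gap between X and autosomes was smaller there than in tRNA windows.

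The 61 peaks at tRNA genes had a median signal of 33.9, below that of the reproducible list. The signal of that list ran from 26.9 to 330 with a median of 38.6. On X the 40 tRNA peaks, at 47 genes, ran from 29.1 to 84.0 with a median over peaks of 38.9. On the autosomes the 21 peaks, at 22 genes, ran from 27.1 to 46.4 with a median over peaks of 29.2. The strongest tRNA peak ranked 60 of 748. The autosomal peaks lay nearer the lower end of the list, where the strongest pooled entry in a tRNA window that was not reproducible had a signal of 26.6.

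Replicate support was also uneven. Of the 47 X genes, the strongest entries of replicate 1 covered 42 and those of replicate 2 covered 27, with 24 covered by both and 2 by neither. Of the 22 autosomal genes the numbers were 19, 6, 4 and 1 in the same order. At the X genes the replicate 1 signal ran from 7.45 to 73.6 with a median of 30.0 (46 genes with an entry), and the replicate 2 signal from 2.42 to 22.6 with a median of 9.41 (46 genes). At the autosomal genes the medians were 24.3 (22 genes) and 6.22 (18 genes). The X and autosomal values overlapped in both replicates.

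**Figure D2:**
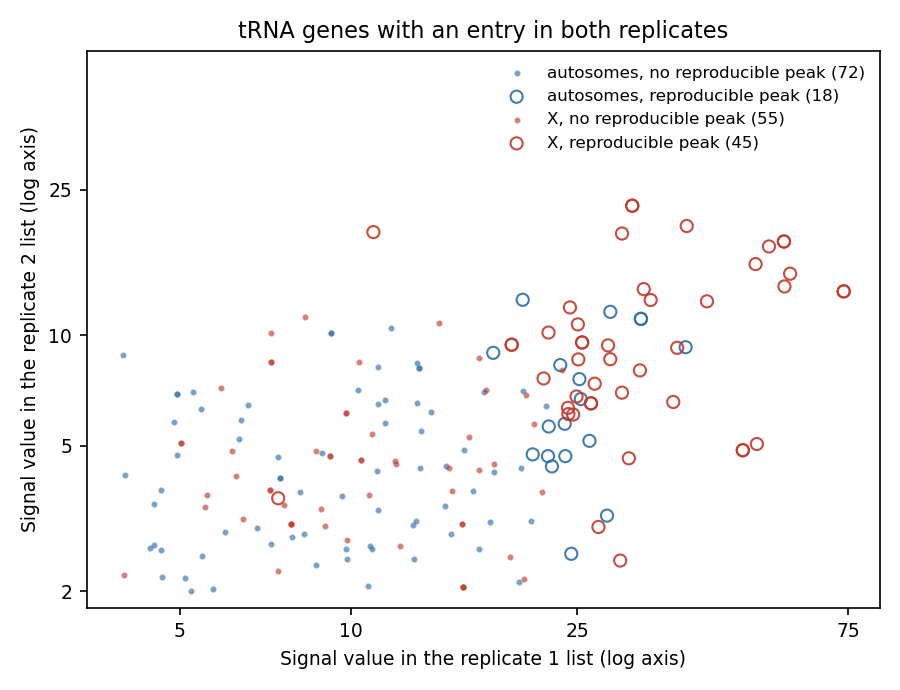
Each point is a tRNA gene with a candidate entry in both replicates, placed by the signal value in replicate 1 (x) and replicate 2 (y), both on log axes. Open circles are genes with a reproducible peak, 45 on X (red) and 18 on autosomes (blue), and dots are 55 X and 72 autosomal genes without one. The highest values in both replicates belong to X genes.

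The strongest tRNA peak on X lay between 2 divergent genes, the tRNA-Gly gene M02F4.t1 (WBGene00023110, X, 3036164 to 3036235) and the tRNA-Glu gene M02F4.t2 (WBGene00023111, X, 3035976 to 3036047). Their starts are 117 bp apart in intergenic sequence, and the peak (3035937 to 3036276) covers both. Its signal was 84.0, with 73.6 in replicate 1 (rank 43) and 13.2 in replicate 2 (rank 287). Both replicates thus placed it among their strongest 748 entries.

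The tRNA-Tyr gene R11.t1 (WBGene00014486) had a peak of 76.1, with 59.2 in replicate 1 and 14.7 in replicate 2. The divergent tRNA-Ser genes C53C7.t1 and C53C7.t2 (WBGene00014295 and WBGene00014296) shared a peak of 74.6, with 57.8 and 18.1. The isolated intergenic tRNA-Lys gene C33G3.t2 (WBGene00014275) had 70.6, with 54.4 and 17.5. Each of these ranked within the top 748 of both replicates' own lists. The strongest isolated intronic gene on X was the tRNA-Gln gene R04A9.t1 (WBGene00023117), in an intron of ZK1193.2 on the opposite strand. It had 70.0, with 57.9 and 13.6, and its summit lay 122 bp upstream of the start, the farthest upstream of all 61 peaks.

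The remaining peaks among the 12 strongest on X belonged to genes for several amino acids. The tRNA-Glu gene C28G1.t1 (WBGene00022947), which overlaps an exon of C28G1.2, had 61.4, with 51.5 in replicate 1 and 15.7 in replicate 2. The tRNA-Asn gene F41D9.t3 (WBGene00023042) had 56.1, with 39.0 and 19.9, and the tRNA-Lys gene W03G11.t1 (WBGene00014540) had 55.4, with 42.3 and 12.4. The tRNA-Pro pair F46G11.t1 and F46G11.t2 (WBGene00023050 and WBGene00023051) shared 49.0, with 31.3 and 22.6, and the latter is the highest value of any tRNA gene with a reproducible peak in replicate 2. The tRNA-Leu gene C04E7.t1 (WBGene00022908) had 47.2, with 30.0 and 18.99. Replicate 2 gave much less weight to 2 others. The tRNA-Leu gene W02H3.t1 (WBGene00014538) had 56.7, with 51.8 in replicate 1 and 5.05 in replicate 2, where it ranked 3332. The tRNA-Ala pair F15G9.t1 and F15G9.t2 (WBGene00014333 and WBGene00014334), in an intron of him-4, had 56.4, with 48.9 and 4.85, and ranked 3711 in replicate 2.

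The strongest autosomal tRNA peak was at the tRNA-Cys gene C37A2.t1 (WBGene00022955), on chromosome I in an intron of the cyclin E gene cye-1. Its signal was 46.4, with 38.8 in replicate 1 and 9.28 in replicate 2. Next came the isolated intergenic tRNA-Ile gene F57F5.t1 (WBGene00014406) on V with 43.5 (28.6 and 11.6) and the tRNA-Pro pair W09D6.t1 and W09D6.t2 (WBGene00014552 and WBGene00014553), in an intron of rsa-2 on III, with 42.2 (32.4 and 11.1). All 3 stood in the strongest entries of both replicates. The other 5 of the 8 strongest autosomal peaks ran from 32.3 to 33.8, at the tRNA-Ser gene ZC455.t1 on V, the tRNA-Arg gene F14B4.t1 on I, the tRNA-Ile genes T21B4.t1 and F33G12.t1 on II and the tRNA-Lys gene B0350.t1 on IV. T21B4.t1, in an intron of the collagen gene col-85, had 26.1 in replicate 1 and no entry in replicate 2. The strongest clustered intergenic autosomal gene, the tRNA-Thr gene W09G10.t3 (WBGene00023162) on II, had 30.1, with 20.1 and 12.5. No autosomal tRNA peak reached the 12th strongest on X.

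Summits lay close to the gene start. Over the 61 peaks, each measured from the nearest tRNA start on the gene strand, the median position was -17 bp (quartiles -28 and 14, range -122 to 95), where negative values are upstream. Of these, 51 (83.6%) were within 50 bp of the start and 25 were at the start or inside the gene. The median was -14 bp on X and -19 bp on the autosomes. With each replicate's strongest entries it was -18 bp in replicate 1 (59 summits) and -14.5 bp in replicate 2 (40 summits). At the 477 protein-coding genes with a summit in the window, it lay farther upstream, with a median of -194 bp (quartiles -288 and -116). It was within 50 bp at 9.22% of these genes. The 2 measures differ, since a summit in the windows of 2 protein-coding genes was counted at each and not only at the nearest start. The commonest width of the peaks was 340 bp, so a summit does not place the contact to the base. The tRNA gene is about as long as the spread of the positions, and the boxes inside it cannot be told apart from the flank.

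**Figure D3:**
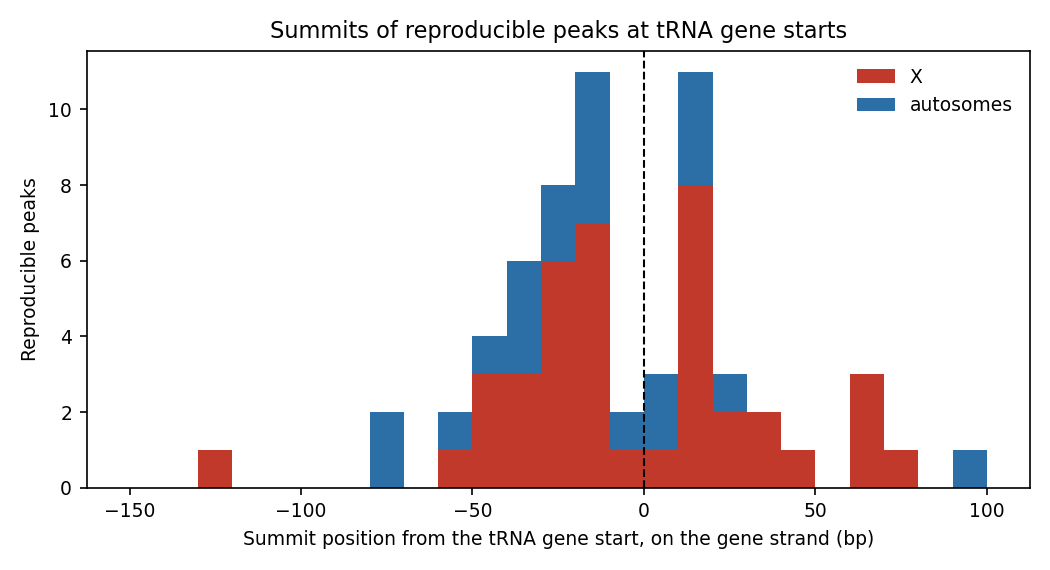
The histogram counts reproducible peaks by the position of the summit relative to the nearest tRNA gene start, in bins of 10 bp on the gene strand, with X peaks in red and autosomal peaks in blue stacked on them. The dashed line is the gene start. Of the 61 summits, 51 lie within 50 bp of it.

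Spacing between tRNA genes made no difference that held in both replicates, while X was higher than the autosomes both for isolated genes and for clustered ones. A gene was called clustered when another tRNA gene started within 1000 bp, which applied to 230 genes. On X, 29 of 145 isolated genes (20.0%) and 18 of 131 clustered genes (13.7%) had a reproducible summit. On the autosomes, 18 of 237 isolated (7.59%) and 4 of 99 clustered genes (4.04%) had one. X exceeded the autosomes by 12.4 points among isolated genes (5.39 to 20.2) and by 9.70 points among clustered genes (2.06 to 17.1). Among clustered genes the difference was 9.18 points in replicate 1 (2.04 to 16.2) but 4.38 points in replicate 2, with an interval that included 0 (-3.72 to 11.9).

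Clustered minus isolated was -2.74 points over all tRNA genes (-7.59 to 2.62), and its sign turned with the replicate. It was -4.04 points in replicate 1 and 3.02 points in replicate 2, both with intervals that included 0. On the autosomes replicate 2 gave 7.07% of clustered and 2.11% of isolated genes, a difference of 4.96 points (0.438 to 11.9) against -4.99 points in replicate 1 (-9.60 to 1.199). Counting each run of neighbouring genes once, 40 of 198 loci on X (20.2%, 14.8 to 26.5) and 21 of 282 on the autosomes (7.45%, 4.67 to 11.2) had a summit. On X, loci of 2 or more genes had one in 11 of 53 cases (20.8%) and single genes in 29 of 145 (20.0%), so the lower share of clustered genes on X was not seen when loci were counted.

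Host context gave a similar picture. A gene was called intronic when its body lay inside a protein-coding gene without touching an exon (283 genes) and intergenic when it lay in no protein-coding gene (319 genes). On X, 16 of 95 intronic (16.8%) and 30 of 180 intergenic genes (16.7%) had a summit. On the autosomes, 16 of 188 intronic (8.51%) and 5 of 139 intergenic genes (3.60%) had one. X exceeded the autosomes by 13.1 points among intergenic genes (6.50 to 19.5) and by 8.33 points among intronic genes (0.449 to 17.7). In replicate 1 alone the intronic difference was 7.80 points with an interval that touched 0 (-0.141 to 17.2), and in replicate 2 it was 6.80 points (0.777 to 14.8).

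Intronic minus intergenic was 0.336 points over all tRNA genes (-4.70 to 5.50) and 0.175 points on X. On the autosomes it was 4.91 points (-0.649 to 10.2), with 6.16 points in replicate 1 (0.742 to 11.4) and 0.126 points in replicate 2, so no difference was detectable in both replicates. By the strand of the host, intronic genes on the host's strand had a summit in 7 of 50 cases on X (14%) and 9 of 110 on the autosomes (8.18%). Those on the opposite strand had one in 9 of 45 (20%) and 7 of 77 cases (9.09%). Replicate 1 gave the same order with 10.4% on the opposite and 8.18% on the host's strand on the autosomes, while replicate 2 gave 2.60% and 4.55% there. The intervals of the shares for the 2 strands overlapped in each list. Of the 10 genes that overlap an exon, 1 of 1 on X and 1 of 9 on the autosomes had a summit. When both criteria were crossed, X was above the autosomes in all 4 classes of the reproducible list, from 12 of 61 against 13 of 137 for isolated intronic genes to 14 of 97 against 1 of 48 for clustered intergenic genes. The same held in replicate 1 alone. In replicate 2 it held in 3 classes, and clustered intronic genes had 2 of 34 on X (5.88%) against 4 of 51 on the autosomes (7.84%).

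**Figure D4:**
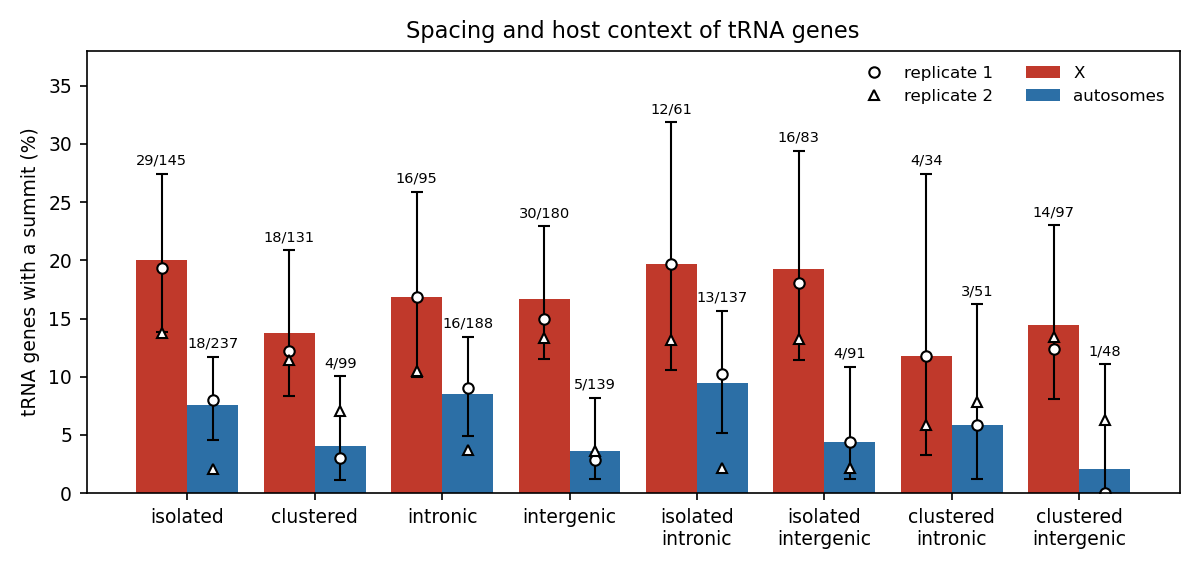
Bars give the percentage of tRNA genes with a reproducible summit on X (red) and autosomes (blue) by spacing and host context, with exact 95% intervals for counting error only. Circles and triangles are the percentages from the 748 strongest entries of replicate 1 and of replicate 2. The X bar is higher in all 8 comparisons, while the replicate 2 triangles for clustered autosomal genes lie above the bars.

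Many tRNA genes exist as identical copies on several chromosomes, which allows the gene sequence to be held equal. The 612 genes had 200 distinct sequences, and 43 of these occurred both on X and on an autosome. Among those 43 families, 38 of 185 X copies (20.5%, 15.0 to 27.1) and 17 of 223 autosomal copies (7.62%, 4.50 to 11.9) had a reproducible summit. In replicate 1 the counts were 38 and 18, and in replicate 2 they were 25 and 9. The share was higher on X in 22 families and on the autosomes in 8, and 13 families had no copy with a summit. Genes whose sequence occurs on X alone had a summit in 9 of 91 cases (9.89%) and those whose sequence occurs on autosomes alone in 5 of 113 (4.42%). Copies with the same gene sequence thus differed in whether they had a peak.

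The family with most copies on both was a tRNA-Gly of 72 bp with 11 copies on X and 18 on autosomes. Of the X copies 4 had a reproducible summit, and of the autosomal copies 1. On X these were M02F4.t1 with 84.0, K09C8.t1 (WBGene00014436) with 43.6, and the divergent pair T10B10.t1 and T10B10.t2 (WBGene00014514 and WBGene00014515), which shared 33.8. The autosomal copy was Y82E9BR.t1 (WBGene00023195) on III, in an intron of lelo-2, with 29.2. In the pooled list 9 X copies had an entry, from 7.47 to 84.0 with a median of 25.6, and 14 autosomal copies had one, from 5.91 to 29.2 with a median of 10.1. The medians were 24.1 and 6.62 in replicate 1, and 5.68 and 3.64 in replicate 2, and the ranges overlapped in every list. Among the X copies R04E5.t4 (WBGene00023121) and C28G1.t4 (WBGene00022950) had no entry in any list, so X copies ranged from no entry to 84.0.

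The flanks of these copies are printed to show how much differs outside the identical gene, again with the gene in capitals and 100 bp of flank in lower case. K09C8.t1 (chrX:10963728-10963899 on the plus strand) and T10B10.t2 (chrX:15200817-15200988 on the minus strand) have a reproducible peak on X, and R04E5.t4 (chrX:8818578-8818749 on the minus strand) has no entry. Y82E9BR.t1 (chrIII:1424391-1424562 on the plus strand) has the autosomal peak, and Y51H4A.t5 (chrIV:16670866-16671037 on the minus strand) has no entry in any list. The capitals are the same 72 bases as in M02F4.t1 above.
K09C8.t1: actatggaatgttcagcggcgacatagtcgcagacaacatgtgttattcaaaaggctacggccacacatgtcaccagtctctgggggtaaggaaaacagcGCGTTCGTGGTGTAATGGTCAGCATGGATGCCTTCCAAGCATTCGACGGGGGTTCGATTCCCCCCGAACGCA
T10B10.t2: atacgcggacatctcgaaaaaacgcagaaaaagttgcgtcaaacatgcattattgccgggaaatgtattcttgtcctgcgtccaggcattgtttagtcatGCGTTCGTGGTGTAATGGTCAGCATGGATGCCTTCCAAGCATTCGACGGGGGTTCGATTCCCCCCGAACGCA
R04E5.t4: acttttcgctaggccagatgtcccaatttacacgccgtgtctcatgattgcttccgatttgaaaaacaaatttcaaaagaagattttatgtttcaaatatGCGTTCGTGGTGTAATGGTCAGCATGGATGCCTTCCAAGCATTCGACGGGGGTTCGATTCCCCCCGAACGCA
Y82E9BR.t1: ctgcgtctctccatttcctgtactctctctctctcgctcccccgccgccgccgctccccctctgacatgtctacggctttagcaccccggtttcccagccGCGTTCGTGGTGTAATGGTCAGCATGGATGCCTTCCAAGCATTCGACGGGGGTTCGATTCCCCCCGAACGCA
Y51H4A.t5: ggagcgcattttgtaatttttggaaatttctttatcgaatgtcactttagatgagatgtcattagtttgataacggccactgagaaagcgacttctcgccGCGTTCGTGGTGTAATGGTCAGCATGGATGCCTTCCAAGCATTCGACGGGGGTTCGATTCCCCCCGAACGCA

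A pair of short words was commoner in the windows of tRNA genes with a peak, and both words had been picked because they were common at summits of these same samples. CTGCGTC and GAGAGAG were searched on both strands. On X, CTGCGTC was present in 12 of 47 windows with a reproducible summit (25.5%) and in 5 of 229 without (2.18%). On the autosomes it was present in 6 of 22 (27.3%) and 37 of 314 (11.8%), and over all gene start windows in 5.30%. GAGAGAG was present in 14 of 47 (29.8%) and 16 of 229 (6.99%) windows on X, in 5 of 22 (22.7%) and 36 of 314 (11.5%) on the autosomes, and in 9.27% of all windows. The words are a description of sequence, and a match is not a binding site.

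Read the other way, the difference was wide on X. Because the word was picked at summits of these same samples, the difference is a description and not independent evidence. Of the 17 X windows with CTGCGTC, 12 had a reproducible summit (70.6%, 44.0 to 89.7), against 35 of 259 without it (13.5%, 9.60 to 18.3). In replicate 1 the counts were 10 of 17 and 34 of 259, and in replicate 2 they were 7 of 17 and 28 of 259. On the autosomes 6 of 43 windows with the word (14.0%, 5.30 to 27.9) and 16 of 293 without it (5.46%) had a summit. The 17 X windows belonged to 15 loci, of which 10 had a summit, and the 43 autosomal windows to 39 loci, of which 6 had one. The word itself was rarer in X tRNA windows (6.16%) than in autosomal ones (12.8%).

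GAGAGAG, picked in the same way, showed the same order. On X 14 of 30 windows with it (46.7%, 28.3 to 65.7) and 33 of 246 without it (13.4%) had a summit, and on the autosomes 5 of 41 (12.2%) and 17 of 295 (5.76%). Among windows with neither word, 25 of 234 on X (10.7%, 7.03 to 15.4) and 13 of 260 on the autosomes (5%, 2.69 to 8.40) had a summit. The share on X was higher there too, though the intervals overlapped. The counts were the same in replicate 1, and in replicate 2 they were 22 of 234 and 8 of 260. The part of the words in the X difference was not tested.

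CTGCGTC lay upstream of the gene rather than inside it. In R04A9.t1 it began at -192, in W03G11.t1 at -181 and in F57F5.t1 at -200, all on the gene strand and upstream of the bases printed. In F41D9.t3 it was present on the other strand at -204 and at -144. In the printed flanks it can be read at the first base of Y82E9BR.t1, at -100, and at -25 in T10B10.t2. Among the Gly copies with a peak, M02F4.t1 and K09C8.t1 did not have it in the window. Among those without a peak, Y51H4A.t3 (WBGene00014581) on IV had it at -443 and T04D3.t3 (WBGene00014502) on I at -349. Both of these matches were on the other strand.

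**Figure D5:**
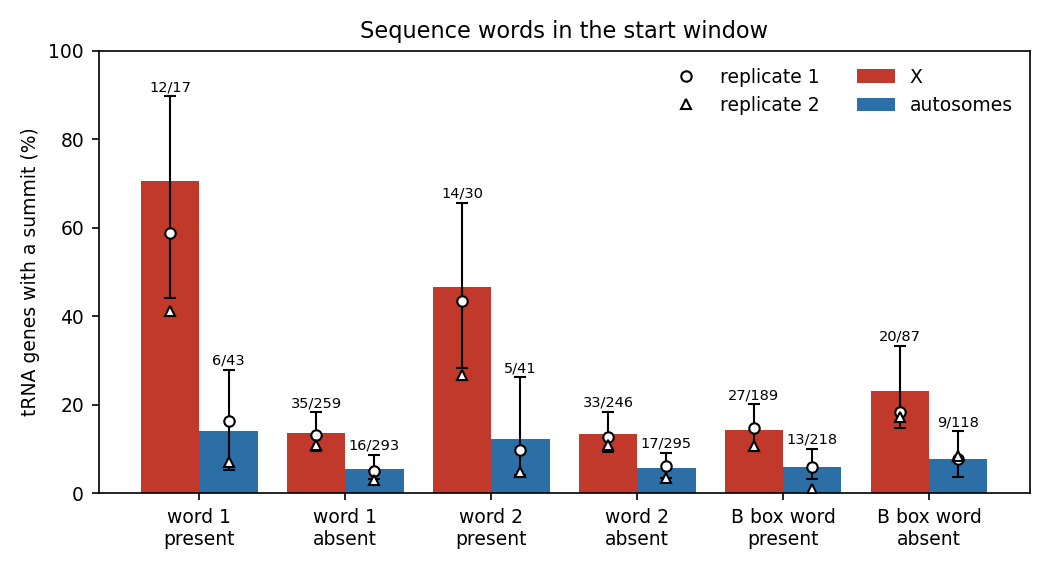
Bars give the percentage of tRNA genes with a reproducible summit on X (red) and autosomes (blue) among windows with and without a word, with exact 95% intervals for counting error only, and circles and triangles give the 2 replicates' strongest entries. Word 1 is CTGCGTC, word 2 is GAGAGAG and the B box word is GGTTCGA. The X bar with word 1 reaches 70.6%, against 13.5% without it. Words 1 and 2 were picked at summits of these same samples.

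The other words searched were the following. GTCTC, which shares letters with CTGCGTC where they run together as CTGCGTCTC, was present in 76.6% of X windows with a summit and 49.3% without, in 77.3% and 62.1% on the autosomes, and in 47.9% of all gene start windows. TGCGC was less frequent in X windows with a summit (27.7%) than in those without (35.8%). On the autosomes the order was the other way, with 50% and 41.4%. In the upstream 500 bp alone the X shares were close, at 25.5% and 24.0%. The word GCGCGC was less frequent with a summit, in 0 of 47 X windows with one and 11 of 229 without (4.80%). On the autosomes it was in 1 of 22 (4.55%) and 20 of 314 (6.37%), and over all gene start windows in 4.62%. Of the 11 X windows with this word, 0 had a summit in the reproducible list and in each replicate (exact interval up to 28.5%). The B box core GGTTCGA, which contains GTTCGA, was present in 57.4% of X windows with a summit and 70.7% of those without, and in 4.99% of all gene start windows. Genes with GTTCGA in their body were 31 of 47 with a summit on X (66.0%) and 169 of 229 without (73.8%). The A box word TGGCNNAGT, where N is any base, was in 14.9% of X windows with a summit and 10.5% without. On the autosomes it was in 13.6% and 16.2%. TAAT, the core recognised by many homeodomains, was in 97.9% of X windows with a summit and in 99.5% of all gene start windows, so at this window length it separates nothing. TTTTT was likewise in 47 of 47 X windows with a summit and in 99.6% of all gene start windows. GCGCAGGG, a core of the motif of the dosage compensation complex at its X recruitment sites, was in 1 of 47 X windows with a summit and 0 of 229 without, which allows a share of up to 1.60% in the latter by the exact interval. The GC content of the windows was 38.8% ± 2.79 (SD over windows) with and 37.5% ± 3.44 without a summit on X, and 41.5% ± 5.51 and 39.9% ± 4.26 on the autosomes. Windows with a summit thus had a slightly higher mean on both kinds of chromosome, within the spread over windows, and the part of GC content in the result was not tested.

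By amino acid, summits were found at genes for 19 of 21 isotypes, counting selenocysteine. Of the 20 isotypes with genes on both kinds of chromosome, 15 had a higher share on X, 4 on the autosomes and 1 was equal at 0. tRNA-Pro had 7 of 20 on X and 2 of 22 on the autosomes in the reproducible list. tRNA-Gly had 5 of 20 and 1 of 35, tRNA-Leu 5 of 17 and 1 of 22, tRNA-Ser 5 of 18 and 2 of 21, tRNA-Asp 4 of 12 and 0 of 15, and tRNA-Tyr 3 of 8 and 0 of 11. The order was the other way for tRNA-Arg with 0 of 27 on X and 2 of 17 on the autosomes, tRNA-Ile with 1 of 13 and 3 of 16, tRNA-Thr with 1 of 14 and 3 of 20, and tRNA-Cys with 0 of 7 and 1 of 6. In each replicate alone the isotypes named as higher on X stayed so, though tRNA-Asp had 1 of 12 against 1 of 15 in replicate 2. Of those higher on the autosomes, tRNA-Ile and tRNA-Cys kept their order. tRNA-Thr turned in replicate 1, with 2 of 14 on X and 1 of 20 on the autosomes. tRNA-Arg had no summit in replicate 2. tRNA-Phe had a reproducible summit at 0 of 14 genes, which allows a share of up to 23.2% by the exact interval. These counts are small, and the exact interval for tRNA-Arg on X reached 12.8%. The anticodons were not used here.

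Other genes of the tRNA pathway were taken from a fixed list of names. Among aminoacyl-tRNA synthetases, which load tRNAs with their amino acid, 1 of 32 had a reproducible summit (3.13%, 0.0791 to 16.2), a share near that of autosomal protein-coding starts (2.51%). This was ears-2, a glutamyl-tRNA synthetase gene on IV, which had 72.9 in the reproducible list. The replicates gave it 58.9 and 14.3, and its summit lay 27 bp upstream of the start. None of 6 genes for RNA polymerase III subunits, 5 for TFIIIB and TFIIIC and 7 for SNAPc, a factor of small nuclear RNA genes, had one, and neither did mafr-1, the gene of the polymerase III repressor MAF1. The alanyl-tRNA synthetase gene aars-1 was outside the reproducible list with 26.3 in the pooled list, but it was within the top 748 of replicate 2, where 2 of 32 synthetase genes had a summit. The 18 other polymerase III transcripts are 16 genes for 5S ribosomal RNA, rpr-1 and yrn-1. Of these, 1 had a summit (5.56%, 0.141 to 27.3), an interval that holds the 1.63% of all gene starts. This gene was rpr-1. It encodes the RNA of RNase P, which trims the 5′ ends of tRNAs, and it had 57.0, with 34.4 in replicate 1 and 21.9 in replicate 2. The intervals for the short lists are wide, reaching 45.9% for the polymerase subunits.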

How the data were processed

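The deposited lists hold peak positions, summits and a signal value for each peak, which the authors computed against a control alignment not used here, per the file headers. The aligner, the peak caller and the scale of the signal are not given in the sources used here. Depth is unknown. ce11 lists alone were used. The members and lists were chosen with earlier results of these data known.

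Windows were taken from the Ensembl release 115 annotation, and genes were scored by whether a summit fell inside it. Products and sequence came from RefSeq for the same assembly. Candidate lists were ranked by signal, and the strongest 748 entries were used. Shares carry exact Clopper-Pearson 95% intervals and differences Newcombe intervals. Both cover counting error only. No p-value was computed, since both samples form 1 group. The text names the 12 strongest tRNA peaks on X and the 8 strongest on autosomes, the strongest gene of each class, the largest identical family and pathway genes with a summit. Genes and words named beyond this were chosen after their values were seen. Alternatives were the window, the summit rule, a stricter list, the strongest pooled entries and each replicate alone. Others were loci, window overlap, identical copies, cluster distance and host strand. Summit assignment was tested on simulated data. The work was done in Python 3.11.15 with SciPy 1.17.1, and with NumPy 2.4.6 for arrays and matplotlib 3.10.9 for plots.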

Additional observations from a re-analysis of the deposited data

How the results depend on the processing

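Of 148 alternatives to 14 results, 115 stayed within the margin set for each and 33 moved beyond it. Most of these results are shares, which have no direction. Clustered minus isolated, which does, turned from -4.04 points in replicate 1 to 3.02 points in replicate 2. The X minus autosome difference had an interval above 0 in 10 of 11 settings. The 10 include the strongest pooled entries, which held the same 69 tRNA genes and so gave the same 10.5 points. That setting could hardly move any share. Counting loci could not move the shares of isolated genes, which are loci of 1 gene. Both add to the 115. The difference was 4.71 points without genes that have an identical copy and 17.1 points with only windows that hold a pooled entry, a setting chosen after seeing the data. With a single replicate it ran from 9.11 to 9.39 points. The share of all tRNA genes ran from 7.68% to 10.8% with a single replicate, that of X genes from 12.7% to 15.9% and that of autosomal genes from 3.57% to 6.55%. In the same setting isolated X genes ran from 13.8% to 19.3%, isolated autosomal genes from 2.11% to 8.02%, clustered X genes from 11.5% to 12.2%, clustered autosomal genes from 3.03% to 7.07%, intronic X genes from 10.5% to 16.8%, intronic autosomal genes from 3.72% to 9.04%, intergenic X genes from 13.3% to 15.0% and intergenic autosomal genes from 2.88% to 3.60%. The ratio of median signals ran from 1.19 to 1.34, against 1.37 pooled, and the median summit position from -18 to -14.5 bp. With the stronger 374 reproducible peaks the share was 4.90% of all tRNA genes, 9.42% on X and 1.19% on autosomes. It was then 8.97% of isolated X, 0.844% of isolated autosomal, 9.47% of intronic X, 1.60% of intronic autosomal, 8.89% of intergenic X and 0.719% of intergenic autosomal genes. Without identical copies the share was 7.69% of all genes, 10.5% on X, 6.67% of isolated X, 0% of the 16 intronic X (exact interval up to 20.6%) and 4% of intronic autosomal genes. With only windows that hold a pooled entry it was 20.4% of all genes, 29.4% on X and 12.3% on autosomes. It was then 33.7% of isolated X, 14.5% of isolated autosomal, 24.3% of clustered X, 28.6% of intronic X, 15.8% of intronic autosomal and 29.1% of intergenic X genes. The cause of these moves was not tested, except that each of the last 3 settings keeps fewer peaks or genes by construction. No paired analysis was possible because there was a single group. Precision is limited by the number of genes and by the unknown depth.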
